A study of Mus musculus with 23 samples.

Results

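The cortical response to LPS in mice that had never received dox was described across the 770 genes of a neuroinflammation panel, by comparing the 5 mice labelled LPS with the 8 labelled Untreated, 13 of the 23 mice assayed. All 13 were WT mice of the strain B6FVB, from the line CamKIIα-TTA/tetO-APP102 x FVB, and were 12 wk old. They carried no transgene under study and ate unmedicated chow. LPS, a component of the outer membrane of Gram-negative bacteria, was injected i.p. at 2 mg/kg, and cortex was taken 18 h later after perfusion with PBS. According to the methods, Untreated mice were injected with saline, which the labels do not state. LPS mice had given stool samples before the injection and Untreated mice had not, so stool sampling and LPS cannot be told apart. The LPS group had 3 males and 2 females, and the Untreated group had 6 males and 2 females.

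The assay counts color-coded probes hybridized to RNA without amplification, and the deposited counts were scaled here by the upper quartile of the panel genes. Total panel counts ranged from 645971 to 785277 over the 13 mice, and 622 to 683 genes per mouse lay above background, taken as 2 SD over the mean of its negative controls. The 2 groups were run on separate cartridges of the instrument, and a cartridge effect cannot be told apart from LPS. After scaling, the positive control probes differed by -0.12 (log2, LPS minus Untreated, exact permutation p = 0.0917, two-sided) and the housekeeping genes by -0.07 (exact permutation p = 0.121). Over all genes the median change (log2) was -0.04 with this scaling, 0.03 with housekeeping scaling and 0.08 with positive control scaling, a shift against which small changes have to be read. LPS replicate 3 and Untreated replicate 3 stood apart from their groups in many genes, and both were kept. Mice are separate animals, each with its own number.

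Systemic LPS is sensed by Toll-like receptor 4, mainly outside the brain, and the resulting cytokines act on brain endothelium and perivascular cells, which pass the signal on to microglia and astrocytes. Receptors on those cells activate NF-kB and STAT transcription factors, which induce further receptors, adhesion molecules and antiviral proteins. Neurons and oligodendrocytes respond as well, although the panel holds fewer of their genes. In cortex as a whole, fewer cells of a type and less RNA per cell cannot be told apart.

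LPS upregulated 129 of the 770 genes (16.8%) and downregulated 46 (5.97%), counting changes larger than 0.5 on the log2 scale with an adjusted p under 0.05 (175 in all, 22.7%). A further 47 genes (6.1%) rose and 178 (23.1%) fell with an adjusted p under 0.05 and a change of 0.5 or less, which are called small shifts here. The counts of LPS and Untreated mice did not overlap for 206 genes (26.8%), among them 95 of the 129 upregulated and 32 of the 46 downregulated genes. In every mouse of both groups, 58 genes lay under background. Of the upregulated genes, 23 were under background in every Untreated mouse. Values below are normalized counts, those of LPS mice in the order of replicates 1 to 5, and changes are log2 fold changes ± SE with adjusted p values from edgeR. The lists of genes were written with earlier results of these data known, so each is described by its counts beside those of the whole panel.

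**Figure D1:**
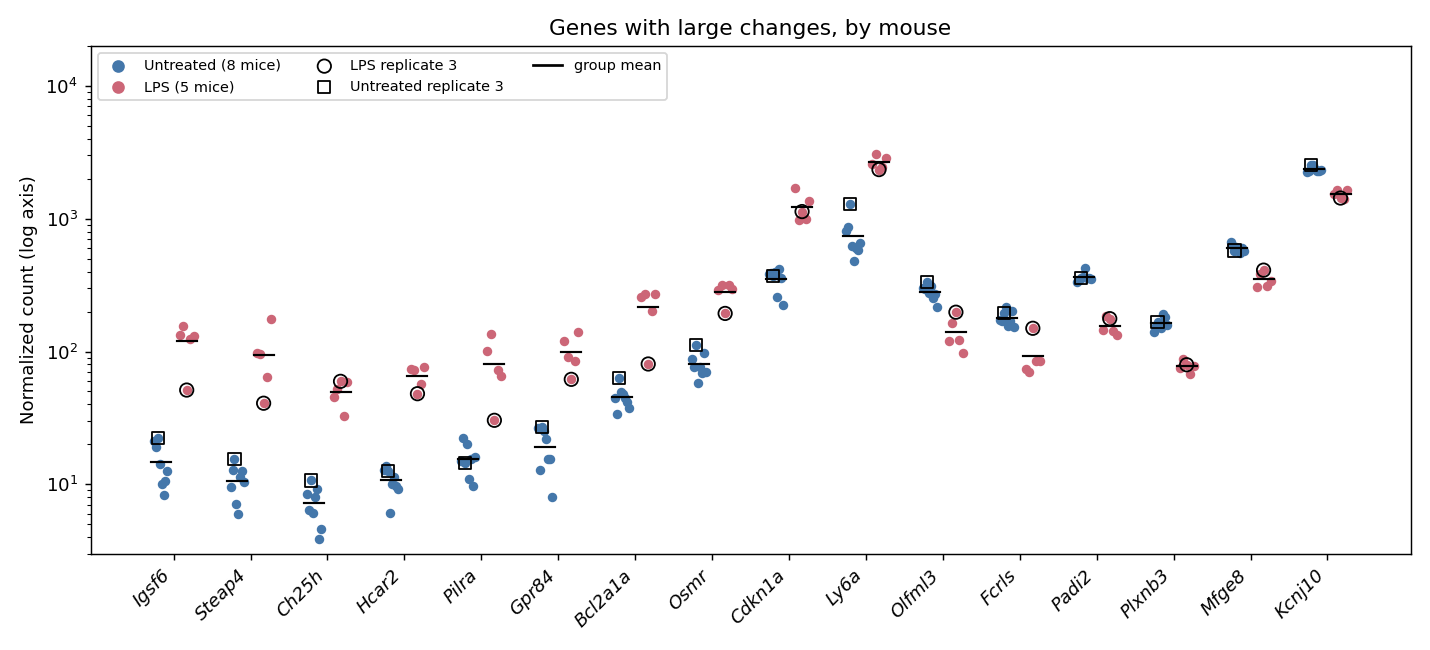
Normalized counts (log axis) of 16 genes in 8 Untreated and 5 LPS mice, with a horizontal line at each group mean. The groups do not overlap for any of the 16 genes, and LPS replicate 3 (open circle) is the lowest LPS mouse for Igsf6, Steap4, Hcar2, Pilra, Gpr84, Bcl2a1a, Osmr and Ly6a.

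Receptors for small metabolites were among the genes that changed most. Hcar2, the receptor for the ketone body beta-hydroxybutyrate and for niacin, had counts of 74.4, 73.1, 48.1, 57.3 and 76.4 in LPS mice and 6.08 to 13.8 (median 10.7) in Untreated mice. It was under background in all Untreated mice, and its mean in LPS mice was at least 3.27-fold above that background (2.61 ± 0.16, adjusted p = 3.24e-12). Gpr84, a receptor for medium-chain fatty acids on myeloid cells, had counts of 119, 91.2, 61.7, 84.1 and 139.7 against 8.03 to 27.2 (median 18.8) (2.36 ± 0.22, adjusted p = 2.99e-09). Both genes were higher in every LPS mouse than in any Untreated mouse. Fpr1, the formyl peptide receptor of phagocytes, had 18.9, 23.7, 21.97, 7.65 and 36.01 against 4.59 to 16.5 (median 10.1), at least 1.08-fold above background (1.11 ± 0.34, adjusted p = 0.00795). Its groups overlapped through LPS replicate 4, and without LPS replicate 5 the change was 0.84 and no longer passed. Of the 11 receptors of this kind that were measured, 3 were upregulated (16.8% over the panel), none was downregulated, 3 fell by 0.5 or less and 5 did not pass, with a median log2 fold change of 0.06. Without LPS replicate 1 or without Untreated replicate 3, 1 was downregulated.

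Enzymes that make oxysterols and eicosanoids moved in both directions. Ch25h, which converts cholesterol to 25-hydroxycholesterol, had counts of 45.1, 52.2, 59.6, 32.5 and 58.8 in LPS mice and 3.88 to 10.7 (median 7.19) in Untreated mice. Every LPS mouse lay above every Untreated mouse, and the LPS mean was at least 2.47-fold above the background of the Untreated mice (2.76 ± 0.20, adjusted p = 6.73e-11). Pla2g4a, the cytosolic phospholipase that releases arachidonic acid, rose (0.60 ± 0.16, adjusted p = 0.00319). Hpgds, the hematopoietic prostaglandin D synthase, had 45.1, 66.5, 70.1, 63.1 and 50.1 against 68.8 to 116 (median 90.8) and fell by 0.65 ± 0.12 on the log2 scale (adjusted p = 5.76e-05), with overlapping groups. Ltc4s, which makes leukotriene C4, had 15.7, 10.4, 16.7, 8.60 and 12.3 against 18.6 to 31.9 (median 20.6) and was downregulated (-0.78 ± 0.17, adjusted p = 0.000571). It was under background in every LPS mouse, and the Untreated mean was at least 1.07-fold above that background. In males alone, the changes of Pla2g4a (0.49) and Ltc4s (-0.61) no longer passed. Of the 10 measured enzymes, 2 rose (16.8% over the panel), 2 fell (5.97%), 1 rose and 1 fell by 0.5 or less, and the median was -0.11.

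Of 29 measured members of the immunoglobulin, SLAM, sialic acid binding and lectin families, 12 were upregulated (16.8% over the panel), 1 was downregulated, 1 rose by 0.5 or less and 15 did not pass, 6 of the 29 being under background in every mouse. A low-count filter, which keeps genes above background in all mice of at least 1 group, removed 17 of the 29 from the test, among them 7 of the 12, and the other 5 were upregulated with it. Igsf6, an immunoglobulin superfamily receptor of myeloid cells, had counts of 134, 157, 51.3, 123 and 131 in LPS mice and 8.25 to 22.3 (median 13.4) in Untreated mice (3.002 ± 0.24, adjusted p = 2.5e-10). Pilra, an inhibitory receptor for sialylated glycoproteins, had 102, 135, 30.3, 72.6 and 65.9 against 9.71 to 22.3 (median 15.2) (2.38 ± 0.29, adjusted p = 2.12e-07). In both genes LPS replicate 3 was the lowest LPS mouse, yet above every Untreated mouse. Ms4a4a, a membrane protein of macrophages, had 140.5, 163, 62.8, 120.4 and 114 against 15.2 to 35.6 (median 22.6) (2.304 ± 0.20, adjusted p = 1.46e-09). Lilrb4a, an inhibitory receptor of myeloid cells, had 99.6, 116, 57.5, 98.4 and 134 against 14.01 to 38.8 (median 23.9) (1.97 ± 0.22, adjusted p = 8.07e-08). Lag3, an inhibitory receptor of T cells, went the other way and fell by 0.59 ± 0.13 on the log2 scale (adjusted p = 0.00062), with 56.6, 40.8, 44.98, 37.3 and 39.5 against 53.9 to 95.2 (median 60.7). Its groups overlapped, and without Untreated replicate 3 its change was -0.49, under the size that was counted. With positive control scaling the change was -0.47, and in males alone the fall (-0.52) did not pass.

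Of 21 measured kinases, phosphatases and adaptors of ITAM signalling, 6 were upregulated (16.8% over the panel), 3 rose and 3 fell by 0.5 or less, and 9 did not pass (median 0.23). Fcer1g, the adaptor chain shared by Fc receptors, had counts of 261, 344, 214, 259 and 254 in LPS mice and 91.4 to 158 (median 103) in Untreated mice (1.29 ± 0.12, adjusted p = 2.57e-09). Ptpn6, the phosphatase SHP-1 that acts downstream of inhibitory receptors, had 112, 171, 84.7, 118 and 98.4 against 38.2 to 63.1 (median 59.7) (1.03 ± 0.16, adjusted p = 5.66e-06). The kinase Lyn (0.67 ± 0.10, adjusted p = 4.62e-06) and the exchange factor Vav1 (0.74 ± 0.12, adjusted p = 1.63e-05) rose as well. None of the 4 genes overlapped between groups. Plcg2, the phospholipase that these kinases activate in myeloid cells, rose by a small shift (0.44 ± 0.10, adjusted p = 0.000599), and its groups overlapped.

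Of 20 measured cytokine and growth factor receptors outside the interleukin 1 family, 4 were upregulated, 1 was downregulated and 5 fell by 0.5 or less. These shares were near those of the panel (16.8%, 5.97% and 23.1%). Osmr, the receptor subunit for oncostatin M, had counts of 291, 316, 194, 319 and 293 in LPS mice and 57.8 to 112 (median 76.8) in Untreated mice (1.802 ± 0.17, adjusted p = 6.57e-09). Il2rg, the gamma chain shared by several interleukin receptors, had 75.5, 117, 67.99, 104 and 80.8 against 23.01 to 54.4 (median 27.1) (1.504 ± 0.20, adjusted p = 9.24e-07). Csf2rb, the beta chain of the receptors for GM-CSF, interleukin 3 and interleukin 5, had 46.1, 36.1, 42.9, 24.9 and 43.9 against 8.50 to 24.3 (median 12.5) (1.47 ± 0.24, adjusted p = 1.38e-05). Every LPS mouse lay above every Untreated mouse for these 3 genes, and Untreated replicate 3 was the highest Untreated mouse for Osmr and Il2rg. Tgfbr1, the kinase subunit of the TGF-beta receptor, had 355, 349, 333, 333 and 336 against 504 to 600.5 (median 558) and fell by 0.70 ± 0.06 on the log2 scale (adjusted p = 2.34e-10). The 5 LPS mice were close together for Tgfbr1 and all below the Untreated mice.

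Of 22 measured TNF superfamily ligands and receptors, 4 were upregulated and 1 was downregulated, shares near those of the panel (16.8% and 5.97%), and 14 did not pass, 6 being under background in every mouse. Without Untreated replicate 2 or 3, 2 were downregulated, and 7 were upregulated when both replicates 3 were left out and 6 with positive control scaling. Tnf itself had counts of 22.01, 26.6, 24.1, 34.4 and 39.5 in LPS mice and 6.88 to 16.5 (median 9.81) in Untreated mice, where it was under background throughout. Its LPS mean was at least 1.46-fold above that background (1.42 ± 0.26, adjusted p = 6.67e-05). Tnfrsf1a, the main TNF receptor of most cells, had 308, 349, 206, 318 and 277 against 119 to 187 (median 125) (1.12 ± 0.12, adjusted p = 6.26e-08). Fas, the receptor of FAS ligand, had 48.2, 52.2, 67.99, 43.97 and 75.5 against 22.3 to 34.00 (median 28.7) (1.03 ± 0.15, adjusted p = 4.58e-06). All 3 were higher in each LPS mouse than in any Untreated mouse. Ltbr, the lymphotoxin beta receptor, had 99.6, 153, 94.1, 109.9 and 106 against 64.8 to 87.2 (median 80.5) (0.51 ± 0.12, adjusted p = 0.000679), whose change was 0.38 without LPS replicate 2, 0.48 without Untreated replicate 1 and 0.50 without Untreated replicate 6, under the size that was counted. Tnfrsf25, death receptor 3, had 14.7, 31.3, 35.6, 23.9 and 24.6 against 26.6 to 145 (median 63.5) and fell by 1.41 ± 0.35 on the log2 scale (adjusted p = 0.0014). The Untreated mice were widely spread for Tnfrsf25, the groups overlapped, and in males alone the fall did not pass.

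Of 16 measured NF-kB subunits, inhibitors and kinases, 3 were upregulated, a share near that of the panel (16.8%), 3 fell by 0.5 or less and 10 did not pass (median 0.08). Nfkb2, the precursor p100 of the alternative pathway, had counts of 59.7, 72.2, 51.3, 75.5 and 91.3 in LPS mice and 24.4 to 30.4 (median 26.96) in Untreated mice (1.37 ± 0.13, adjusted p = 6.15e-09). Nfkbia, the inhibitor IkB-alpha and itself a target of NF-kB, had 205, 141, 144, 121 and 207 against 66.9 to 106 (median 82.7) (0.96 ± 0.16, adjusted p = 1.73e-05). The kinase Ikbke had 28.3, 38.9, 24.1, 27.7 and 44.8 against 12.2 to 19.1 (median 15.2) (1.11 ± 0.18, adjusted p = 1.34e-05). The groups did not overlap for any of them.

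Of 28 measured transcription factors and regulators of inducible and lineage programmes, 5 were upregulated, a share near that of the panel (16.8%). Of the others, 1 was downregulated (none without LPS replicate 4 or 5 or Untreated replicate 1 or 4), and 4 rose and 5 fell by 0.5 or less. The list's median was 0.00. Maff, a small Maf protein that pairs with Nrf2, had counts of 78.6, 54.1, 51.3, 43.01 and 73.8 in LPS mice and 7.10 to 21.2 (median 11.4) in Untreated mice (2.22 ± 0.23, adjusted p = 2.53e-08). Irf1, a mediator of interferon responses, had 269, 240.3, 134, 214 and 314 against 96.4 to 137 (median 119) (0.98 ± 0.15, adjusted p = 5.21e-06). LPS replicate 3 was the lowest LPS mouse for Irf1 and lay within the Untreated range. The growth regulator Myc rose less (0.65 ± 0.09, adjusted p = 8.18e-07).

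Sensors of foreign nucleic acid and adaptors, a list that also holds the inflammasome sensor Nlrp3, had the largest share of upregulated genes among the lists that are not cell markers. Of 13 measured, 10 were upregulated (16.8% over the panel), none was downregulated and 3 did not pass (median 0.68). All 10 were also upregulated with positive control scaling, which moves all genes upward and could hardly undo these calls. Slfn8, a Schlafen family protein, had counts of 56.6, 75.02, 31.4, 58.3 and 43.9 in LPS mice and 8.49 to 27.2 (median 15.4) in Untreated mice (1.67 ± 0.22, adjusted p = 9.73e-07). Ddx58, the RNA sensor RIG-I, had 174, 224, 109.8, 219.8 and 205 against 87.3 to 130.1 (median 100.1) (0.86 ± 0.13, adjusted p = 6.66e-06). Nlrp3, an inflammasome sensor, had 52.4, 44.6, 46.02, 45.9 and 77.3 against 25.01 to 40.8 (median 28.3) (0.83 ± 0.17, adjusted p = 0.00023). LPS replicate 3 was the lowest LPS mouse for Slfn8 and Ddx58, and only for Ddx58 did it overlap the Untreated mice. Ifih1, the RNA sensor MDA5, rose (0.52 ± 0.09, adjusted p = 4.39e-05), and leaving out LPS replicate 1 or 2 or Untreated replicate 5, 7 or 8 brought its change to between 0.49 and 0.50. Rsad2, the antiviral protein viperin, had 83.9, 105, 34.5, 86.02 and 82.6 against 26.4 to 56.3 (median 40.3) (0.94 ± 0.28, adjusted p = 0.00702), with LPS replicate 3 inside the Untreated range, and in males alone its rise (0.76) did not pass.

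Promoter stretches of 6 upregulated genes are printed because each holds a motif read by transcription factors that LPS and interferons activate. RefSeq promoters (build GRCm38.p6, 250 bases before to 50 after the start of a gene) were matched to 606 of the 770 genes. The interferon-stimulated response element was searched as GAAA, any 2 bases and GAAA, and the kappaB site as GGGA, any 2 bases and TTCC, both on either strand. In the sequences below, 5′ to 3′ on the gene's own strand, capitals mark the letters of 1 match per gene, which may be the reverse complement. In Oas1g the last GAAA of the capitals also begins a further match, which runs on into lower case. All 6 genes lie on the minus strand.
Slfn8, chr11:83020824-83020883: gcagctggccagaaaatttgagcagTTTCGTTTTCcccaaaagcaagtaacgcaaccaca
Ddx58, chr4:40239789-40239848: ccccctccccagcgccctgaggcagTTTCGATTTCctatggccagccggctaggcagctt
Ifih1, chr2:62646206-62646248: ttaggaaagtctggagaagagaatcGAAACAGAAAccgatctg
Oas1g, chr5:120887597-120887656: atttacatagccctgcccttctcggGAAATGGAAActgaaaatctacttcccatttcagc
Slamf8, chr1:172590549-172590608: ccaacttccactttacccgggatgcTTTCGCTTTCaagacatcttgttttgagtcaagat
Nfkbia, chr12:55492642-55492701: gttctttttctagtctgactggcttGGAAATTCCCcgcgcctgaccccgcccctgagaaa
Nfkbia is shown for a kappaB match and the other 5 for a response element. The match in capitals began 48 bases before the start in Slfn8, 18 before it in Oas1g, which codes for an oligoadenylate synthetase, and 15 before it in Slamf8, a receptor of the SLAM family. It began 2 bases after the start in Ddx58 and 32 after it in Ifih1. Oas1g and Slamf8 were chosen after their values had been seen, and both rose (log2 fold changes 0.68 and 1.27). The response element was found in 18 of 103 matched upregulated genes (17.5%), in 1 of 38 downregulated genes (2.63%), in 6.11% of the panel and in 3.44% of 32851 promoters. The kappaB letters were found in 8 of the 103 (7.77%), in 3.14% of the panel and in 1.47% of all promoters. These shares describe letters in the windows and were not tested.

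Lists of growth arrest, cell survival and oxidative stress genes, with 11 to 23 measured genes, each had 1 or 2 upregulated members, where the panel had 16.8%. Cdkn1a, the cell cycle inhibitor p21, had counts of 1698, 982, 1132, 1002 and 1359.7 in LPS mice and 225 to 417 (median 377) in Untreated mice (1.82 ± 0.20, adjusted p = 7.67e-08). Among 15 measured p53 and growth-arrest genes it was the only one upregulated, 3 rose by 0.5 or less and 10 did not pass, with 3 upregulated under positive control scaling and 2 without LPS replicate 2 or without LPS replicate 4. Sesn1, a stress-induced sestrin, was 1 of the 3 (0.48 ± 0.07, adjusted p = 2.95e-06). Bcl2a1a, a survival protein of leukocytes that has near-identical copies in the mouse genome, so that its probe may count several, had 258, 271, 80.5, 201 and 272 against 34.00 to 63.1 (median 44.5) (2.25 ± 0.22, adjusted p = 6.15e-09). Of 15 BCL2 family genes it was the only one upregulated, 2 rose and 3 fell by 0.5 or less. Birc3, an inhibitor of apoptosis induced by NF-kB, had 63.9, 58.9, 60.7, 55.4 and 70.3 against 22.3 to 31.9 (median 26.1) (1.22 ± 0.14, adjusted p = 8.07e-08). Of 23 caspases, inhibitors and death adaptors, 2 were upregulated (4 with positive control scaling) and 15 did not pass. Hmox1, heme oxygenase 1, rose (0.56 ± 0.13, adjusted p = 0.000664), but without LPS replicate 2 its change was 0.49. Of 11 Nrf2 and metal-stress genes, Maff and Hmox1 were upregulated, a share near that of the panel, and 2 rose by 0.5 or less.

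Matrix, protease and coagulation genes moved both ways. Of 23 measured, 8 were upregulated (16.8% over the panel), 4 were downregulated (5.97%), and 4 rose and 1 fell by 0.5 or less (median 0.36). Spp1, the secreted phosphoprotein osteopontin, had counts of 622, 712, 272, 788 and 612 in LPS mice and 125 to 206 (median 147) in Untreated mice (1.91 ± 0.19, adjusted p = 1.28e-08). Tgm2, a transglutaminase that crosslinks proteins, had 405, 405, 306, 352 and 365 against 96.3 to 177 (median 113) (1.62 ± 0.11, adjusted p = 3.34e-11). Lrg1, a secreted glycoprotein of vessels, had 72.3, 65.5, 73.2, 53.5 and 84.3 against 13.2 to 50.5 (median 18.2) (1.51 ± 0.23, adjusted p = 8.36e-06). The groups did not overlap for these 3 genes or for Pros1, the anticoagulant protein S (0.85 ± 0.09, adjusted p = 1.95e-08). Olfml3, a secreted protein of microglia, had 121, 163, 198, 121 and 96.6 against 218 to 333 (median 286) and fell by 1.02 ± 0.21 on the log2 scale (adjusted p = 0.000287). Serpinf1, the secreted factor PEDF, fell by 0.51 ± 0.10 on the log2 scale (adjusted p = 9.03e-05), Adamts16 by 0.64 ± 0.16 on the log2 scale (adjusted p = 0.00167) and Col6a3 by 0.54 ± 0.18 on the log2 scale (adjusted p = 0.0139). The calls of Serpinf1 and Col6a3 were lost with positive control scaling (-0.39 and -0.42). Serpinf1 was at -0.49 to -0.45 without LPS replicate 2 or 4 or Untreated replicate 5 or 8, and Col6a3 at -0.49 to -0.44 without LPS replicate 2 or 3 or Untreated replicate 7, so that 2 of the list were downregulated without LPS replicate 2.

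Endothelial genes rose moderately. Of 13 measured endothelial and junction genes, 4 were upregulated (16.8% over the panel), 3 rose and 2 fell by 0.5 or less, and 4 did not pass (median 0.23). Ly6a, a surface protein of mouse brain endothelium also known as Sca-1, had counts of 2584, 3072, 2343, 2445 and 2851 in LPS mice and 483 to 1284 (median 639) in Untreated mice (1.85 ± 0.15, adjusted p = 4.16e-10). Pecam1, the adhesion molecule CD31, had 456, 492, 449, 529 and 478 against 264 to 414 (median 319.5) (0.57 ± 0.10, adjusted p = 2.2e-05). Icam2 (0.60 ± 0.15, adjusted p = 0.00129) and Lsr, a receptor at tricellular junctions (0.67 ± 0.13, adjusted p = 8.86e-05), rose too, and the groups of all 4 genes were apart. With 1 factor of unwanted variation fitted to the control probes, Pecam1 (0.49) and Icam2 (0.44) were under the size that was counted.

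Among 20 measured transporters and channels, 2 were upregulated, 1 was downregulated (2 without LPS replicate 5, none with positive control scaling) and 12 did not pass. Over the panel, 16.8% were upregulated and 5.97% downregulated. Steap4, a metalloreductase induced by inflammatory cytokines, had counts of 97.5, 95.9, 40.8, 64.04 and 175 in LPS mice and 6.002 to 15.5 (median 10.8) in Untreated mice. All Untreated mice were under background, and the LPS mean was at least 4.7-fold above it (3.14 ± 0.36, adjusted p = 1.15e-07). Kcnj10, the potassium channel Kir4.1 of astrocytes, had 1541, 1632, 1431, 1407 and 1648 against 2232 to 2525 (median 2301) and fell by 0.62 ± 0.05 on the log2 scale (adjusted p = 5.3e-10). No LPS mouse reached the lowest Untreated mouse, although with positive control scaling the change was -0.49. Slc10a6, a steroid sulfate transporter, was above background in 2 of 5 LPS mice and in no Untreated mouse. Its adjusted p was 0.0456, and its call ended without any 1 of LPS replicates 1, 3, 4 and 5 and Untreated replicates 2, 3, 5, 6, 7 and 8, with changes of 0.67 to 0.80.

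Genes on the list of lysosomal enzymes and membrane proteins rose without exception among those that passed. Of 18 measured, 4 were upregulated (16.8% over the panel), 5 rose by 0.5 or less (6.1%), none fell and 9 did not pass (median 0.18). With positive control scaling 5 were upregulated. Ifi30, a lysosomal thiol reductase induced by interferon, had counts of 200.2, 252, 112, 249 and 227 in LPS mice and 61.1 to 109.7 (median 77.2) in Untreated mice (1.404 ± 0.18, adjusted p = 5.98e-07). Npl, a lyase of sialic acid that the list also holds, had 256, 302, 281, 266 and 252 against 127 to 172 (median 157) (0.82 ± 0.11, adjusted p = 9.09e-07). Both were apart between groups, with LPS replicate 3 the lowest LPS mouse for Ifi30. Cd68, the lysosomal glycoprotein of phagocytes, rose (0.53 ± 0.11, adjusted p = 0.000179), but without LPS replicate 2 its change was 0.43, and the list then had 2 upregulated genes, as it had with 1 factor of unwanted variation. Small shifts upward were found for the proteases Ctss (0.47 ± 0.09, adjusted p = 0.000183) and Ctsf (0.28 ± 0.04, adjusted p = 2.4e-06), the membrane protein Lamp2 (0.21 ± 0.04, adjusted p = 0.000122) and the proton pump subunit Atp6v0e (0.37 ± 0.07, adjusted p = 0.000145). The groups did not overlap for Ctsf, Lamp2 and Atp6v0e.

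**Figure D2:**
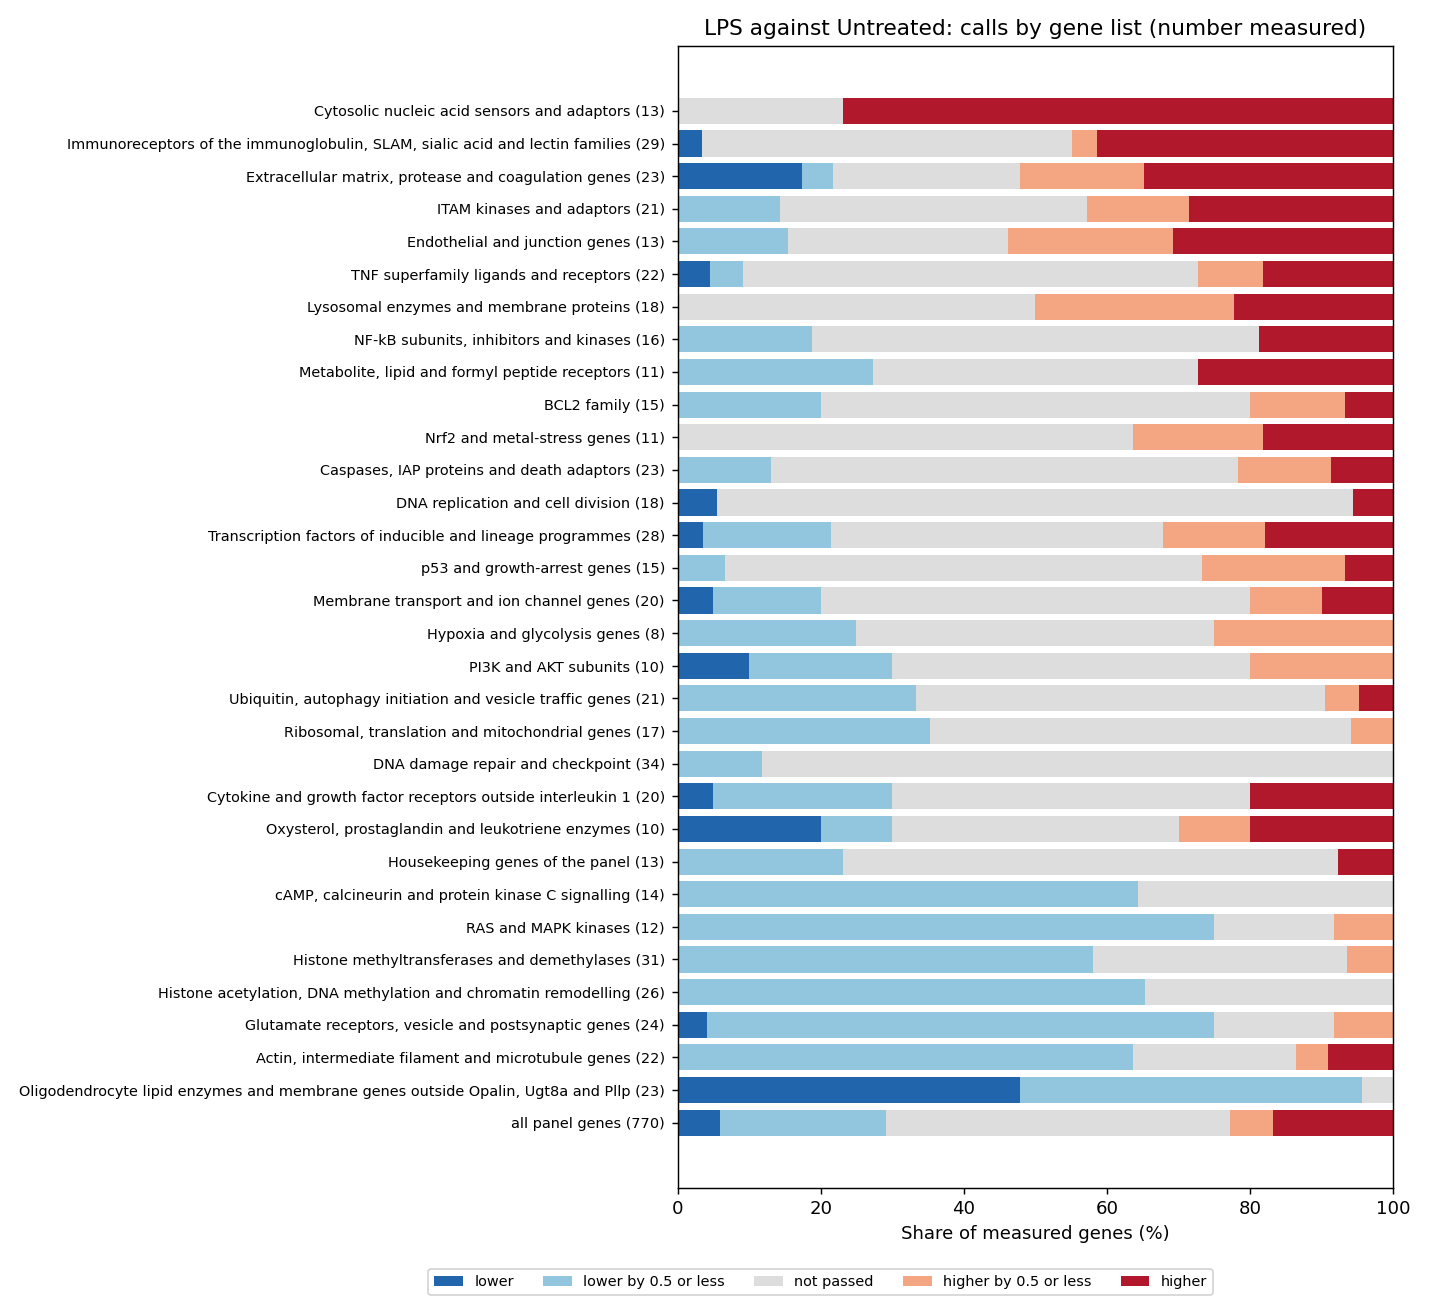
Share of the measured genes of each list (percent, number measured in parentheses) that were upregulated, downregulated, shifted by 0.5 or less or did not pass, with lists ordered by their median log2 fold change from highest at the top and the whole panel at the bottom. Of 13 genes on the list of nucleic acid sensors and adaptors 10 were higher, and of 23 oligodendrocyte genes 11 were lower and 11 lower by 0.5 or less.

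Oligodendrocyte genes other than Opalin, Ugt8a and Pllp fell almost as a whole with upper quartile scaling. Of 23 measured genes for myelin lipids, membrane and regulators, 11 were downregulated (5.97% over the panel), 11 fell by 0.5 or less and 1 did not pass (median -0.47). With positive control scaling 8 were downregulated, 7 fell and 1 rose by 0.5 or less, and the others did not pass (median -0.35). Of the 11 small downward shifts, 4 passed with every scaling. Padi2, a deiminase that modifies myelin basic protein, had counts of 145, 184, 177, 143 and 133 in LPS mice and 336 to 425 (median 357) in Untreated mice and fell by 1.21 ± 0.10 on the log2 scale (adjusted p = 2.34e-10). Plxnb3, a plexin of oligodendrocytes, had 75.5, 88.3, 79.5, 67.9 and 78.2 against 140.2 to 191 (median 159.9) and fell by 1.07 ± 0.10 on the log2 scale (adjusted p = 2.82e-09). Gjb1, the gap junction protein connexin 32, had 176, 166, 153, 134 and 144 against 244 to 338 (median 297) and fell by 0.94 ± 0.11 on the log2 scale (adjusted p = 1.9e-07). Not 1 LPS mouse overlapped the Untreated range in these genes. Mog, on the outer surface of myelin, fell by 0.73 ± 0.09 on the log2 scale (adjusted p = 2.4e-07), Tmem88b by 0.70 ± 0.09 on the log2 scale (adjusted p = 3.1e-07), and Enpp6, a choline phosphodiesterase of newly formed oligodendrocytes, by 0.95 ± 0.14 on the log2 scale (adjusted p = 5.73e-06). Over the 11 downregulated genes the median change per LPS mouse was -0.73, -0.78, -0.75, -0.82 and -0.76, so that LPS replicate 3 was not apart from the others here.

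Further downregulated genes belong to microglia, astrocytes and signalling. Fcrls, a receptor-like protein of mouse microglia, had counts of 73.4, 70.3, 149.6, 84.1 and 84.3 in LPS mice and 153 to 216 (median 171) in Untreated mice and fell by 0.96 ± 0.15 on the log2 scale (adjusted p = 9.4e-06). LPS replicate 3 was just under the lowest Untreated mouse, and the other 4 LPS mice were well below it. Mfge8, a secreted protein that bridges phagocytes to apoptotic cells, had 308, 383, 410.0, 314 and 339 against 556 to 671 (median 600.5) and fell by 0.78 ± 0.07 on the log2 scale (adjusted p = 4.92e-09). Akt2, a kinase of insulin signalling, had 345, 399, 351, 317 and 315 against 476 to 606 (median 539.9) and fell by 0.65 ± 0.09 on the log2 scale (adjusted p = 1.49e-06). It was the only downregulated gene of 10 measured PI3K and AKT subunits, of which 2 rose and 2 fell by 0.5 or less. Gdpd2 fell by 0.69 ± 0.12 on the log2 scale (adjusted p = 2.37e-05) and Ago4, an Argonaute protein, by 0.65 ± 0.19 on the log2 scale (adjusted p = 0.00475). Without the 3 Untreated mice whose numbers belong to another series, Ago4 (-0.50) and Adamts16 (-0.43) were not called, nor were Pla2g4a (0.43), Cd68 (0.47), Ifih1 (0.47), Col6a3 (-0.38), Grm3 (-0.50), Slc10a6 (0.72) and Top2a (-0.48).

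Synaptic and cytoskeletal genes fell mostly by small shifts. Of 24 measured glutamate receptor, vesicle and postsynaptic genes, 1 was downregulated, 17 fell and 2 rose by 0.5 or less (median -0.20), against 23.1% of the panel that fell by 0.5 or less. With positive control scaling the median was -0.09 and 4 fell by 0.5 or less. Shank3, a scaffold of the postsynaptic density, had counts of 842, 869.9, 913, 759 and 823 in LPS mice and 1048 to 1255 (median 1176) in Untreated mice and fell by 0.48 ± 0.05 on the log2 scale (adjusted p = 1.81e-08). Pacsin1, an endocytic adaptor of neurons, had 4723, 4484, 4960.1, 4270.5 and 4405 against 5556 to 6792 (median 5981) and fell by 0.40 ± 0.05 on the log2 scale (adjusted p = 4.71e-07). The groups did not overlap for either gene, and both passed with every scaling. Grm3, a metabotropic glutamate receptor found on neurons and astrocytes, fell by 0.51 ± 0.07 on the log2 scale (adjusted p = 1.89e-06), a change that dropped below 0.5 with every other scaling (-0.39 with positive controls) and on leaving out LPS replicate 1 or 5 or Untreated replicate 4, 6 or 7 (-0.49 to -0.47). Without LPS replicate 3, 2 of the 24 were downregulated.

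Of 22 measured actin, intermediate filament and microtubule genes, 2 were upregulated (16.8% over the panel), and 1 rose and 14 fell (23.1%) by 0.5 or less. Their median was -0.22, or -0.10 with positive control scaling, and 7 of the 14 passed with every scaling. Tubb3, the neuronal tubulin, had counts of 3954, 4009, 4539.6, 3872 and 4049 in LPS mice and 5408 to 5949 (median 5566) in Untreated mice and fell by 0.46 ± 0.05 on the log2 scale (adjusted p = 5.68e-08). Stmn1, which destabilizes microtubules, had 12072, 12908, 13514, 11789 and 11132 against 13956 to 16594 (median 15834) and fell by 0.35 ± 0.04 on the log2 scale (adjusted p = 1.03e-07). Both were apart between groups, and LPS replicate 3 had the smallest fall. The opposite direction was taken by Msn, the membrane-to-actin linker moesin, with 227, 327, 204, 262 and 218 against 109.7 to 139 (median 123) (1.02 ± 0.10, adjusted p = 5.02e-09), and by Vim, the intermediate filament vimentin of astrocytes and endothelium (0.61 ± 0.13, adjusted p = 0.000339). Without LPS replicate 2 the rise of Vim was 0.48.

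**Figure D3:**
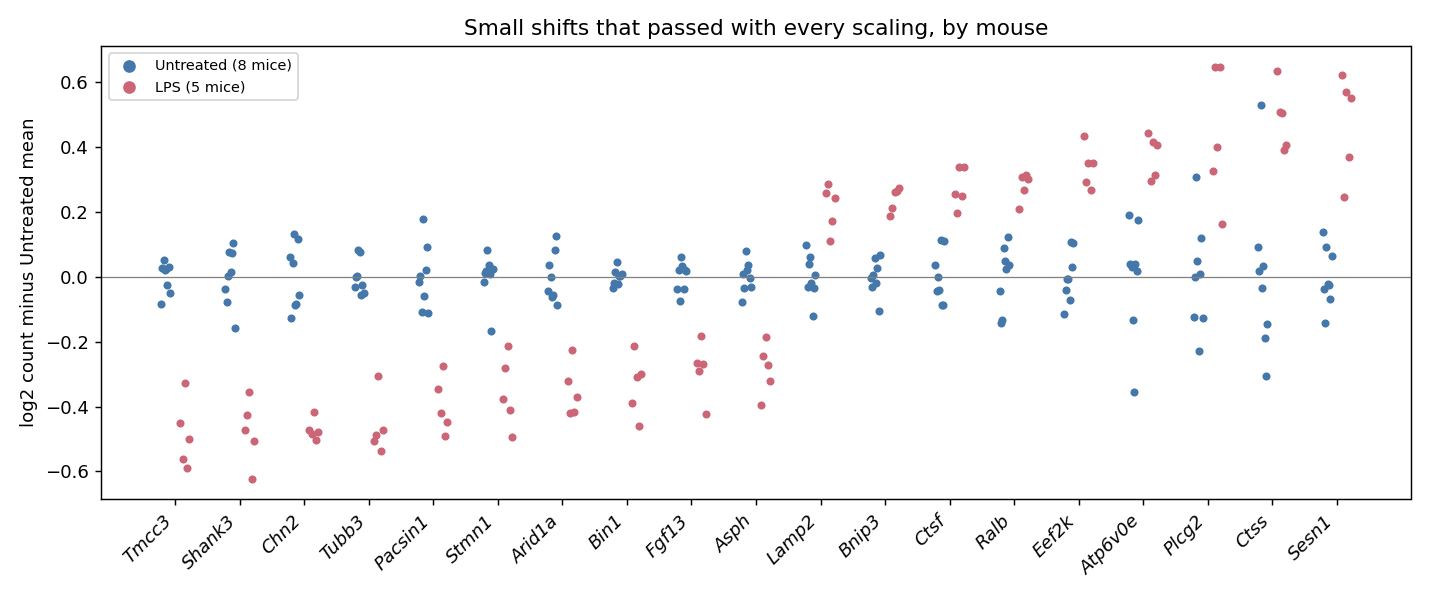
Difference of each mouse from the Untreated mean, as log2 of the normalized count, for 10 downward and 9 upward small shifts, from the 10 each way with the smallest p among those that passed with every scaling (1 is not reported here). All LPS mice lie below all Untreated mice for the 10 genes on the left, from Tmcc3 to Asph, and the groups overlap for Plcg2 and Ctss on the right.

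Further small shifts passed with every scaling, as 47 upward (6.1%) and 39 downward (5.06%) shifts did. Downward, they were Tmcc3 (-0.48 ± 0.05, adjusted p = 2.78e-08), the signalling protein Chn2 (-0.47 ± 0.05, adjusted p = 2.78e-08), the chromatin remodeller subunit Arid1a (-0.35 ± 0.04, adjusted p = 3.3e-07), the membrane-shaping protein Bin1 (-0.33 ± 0.05, adjusted p = 1.48e-06), the sodium channel modulator Fgf13 (-0.28 ± 0.03, adjusted p = 2.16e-07) and the hydroxylase Asph (-0.28 ± 0.03, adjusted p = 2.12e-07). Upward, they were Bnip3, a mitochondrial protein induced by hypoxia (0.24 ± 0.04, adjusted p = 1.17e-05), the GTPase Ralb (0.28 ± 0.05, adjusted p = 3.86e-05) and Eef2k, the kinase that restrains translation elongation (0.34 ± 0.06, adjusted p = 8.55e-05). Chn2 had 449, 445, 467, 439.7 and 447 in LPS mice and 571 to 681 (median 620.0) in Untreated mice, and its LPS mice were close together. Of all small shifts, 69 of 178 downward and 10 of 47 upward had groups that did not overlap. All 47 upward shifts passed with every scaling, but each other scaling moved the median of all genes upward, so they could hardly fail.

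Chromatin and kinase genes made up many of the downward shifts, and the scaling moved most of them. Over the panel, 23.1% of genes fell by 0.5 or less. Of 26 measured genes of histone acetylation, DNA methylation and chromatin remodelling, 17 fell by 0.5 or less, none was called and 9 did not pass (median -0.17), while with positive control scaling 4 fell (median -0.06). Of 31 histone methyltransferases and demethylases, 18 fell and 2 rose by 0.5 or less (median -0.16), while with positive control scaling 2 fell (median -0.04). For RAS and MAPK kinases 9 of 12 fell by 0.5 or less, and for cAMP, calcineurin and protein kinase C genes 9 of 14, with medians of -0.14 each. With positive control scaling the counts were 1 and 2, and the medians -0.03 and -0.02. Ribosomal, translation and mitochondrial genes had 6 of 17 lower and 1 higher by 0.5 or less. Positive control scaling moves all genes upward alike, so it can only take from the downward shifts, of which 39 of 178 passed with it and 7 changed sign.

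**Figure D4:**
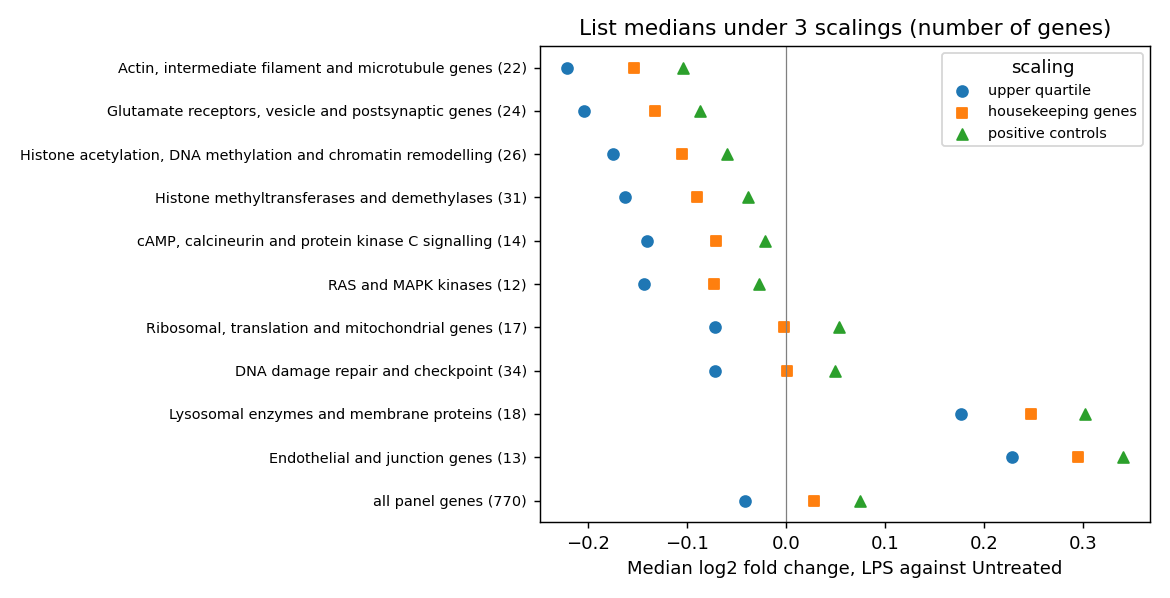
Median log2 fold change of 10 lists and of the whole panel (number of genes in parentheses) under upper quartile, housekeeping and positive control scaling. Every median moves upward from the first to the last scaling, the panel from -0.04 to 0.08, and the medians of the ribosomal and the DNA repair lists change sign.

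Other lists stayed mostly under the threshold. Of 34 DNA repair and checkpoint genes, none was called, 4 fell by 0.5 or less and 30 did not pass (median -0.07). Of 18 DNA replication and cell division genes, 16 did not pass. Timeless, a partner of the replication fork, rose (0.73 ± 0.09, adjusted p = 4.93e-07), and Top2a, the topoisomerase of dividing cells, fell by 0.53 ± 0.17 on the log2 scale (adjusted p = 0.0116), with 22.01, 41.8, 46.02, 25.8 and 25.5 against 32.9 to 55.8 (median 47.1). The call of Top2a was lost under 13 alternatives, among them without LPS replicate 1, 4 or 5 or Untreated replicate 4 or 7 (-0.50 to -0.42), and in males alone its change was -0.25. Of 21 ubiquitin, autophagy and vesicle traffic genes, 7 fell by 0.5 or less and 1 was upregulated, the small heat shock protein Hspb1 (0.52 ± 0.17, adjusted p = 0.0139), which was under the size that was counted without LPS replicate 2 or 4 or without any 1 of Untreated replicates 3, 4, 5, 6 and 7 (0.42 to 0.50). Of 8 hypoxia and glycolysis genes, 2 rose and 2 fell by 0.5 or less. Srgn, the proteoglycan serglycin of leukocyte granules and of endothelium, belongs to no list and had 741, 743, 440.4, 766 and 712 against 162 to 243 (median 206) (1.73 ± 0.12, adjusted p = 2.04e-11). Among the 13 housekeeping genes of the panel, 9 did not pass, Gusb rose (0.55), a call lost without LPS replicate 2 and with 1 factor of unwanted variation, and Csnk2a2, Ccdc127 and Cnot10 fell by 0.5 or less, and these 3 did not pass with positive control scaling.

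Markers of the cell types of cortex were measured beside those of blood cells and macrophages. Over the panel, 16.8% of genes were upregulated, 5.97% were downregulated, and 6.1% rose and 23.1% fell by 0.5 or less. Neuron markers had 3 of 6 lower by 0.5 or less, and their summed count was 30725 to 34104 in LPS mice against 34580 to 40010 in Untreated mice. Of 5 oligodendrocyte markers, 3 were downregulated and 2 fell by 0.5 or less, with sums of 15435 to 18114 against 23251 to 29648, and 1 was downregulated with positive control scaling. Neither sum overlapped between groups, the neuron sums by a narrow margin, and the median change of the neuron markers was -0.12, or 0.00 with positive control scaling. Of 5 microglia markers, 1 was downregulated and 2 fell by 0.5 or less (sums 2337 to 3165 against 3146 to 3692), and of 5 astrocyte markers 1 was upregulated, 1 downregulated (none with positive control scaling) and 2 fell by 0.5 or less. Endothelial markers had 2 of 6 upregulated (none with 1 factor of unwanted variation) and 2 higher by 0.5 or less, with sums of 2448 to 2678 against 1771 to 2606. Monocyte and macrophage markers had 4 of 5 upregulated (sums 151 to 450.1 against 55.3 to 100.03), among them Ms4a4a and Cd163. The exception was Ccr2, which did not pass. Neutrophil markers had 2 of 4 upregulated, or 1 without LPS replicate 2, LPS replicate 5 or Untreated replicate 7 (sums 92.7 to 149 against 55.02 to 105). Of these 4 markers, 1 was under background in every mouse. For lymphocytes, 7 of 9 T cell markers, 5 of 6 B cell markers and 5 of 8 NK cell markers were under background in every mouse, and 1 T cell marker, Foxp3, was downregulated while under background in every mouse of both groups, a call lost without LPS replicate 5. The low-count filter removed 2 of the 4 upregulated monocyte and macrophage markers and both neutrophil markers from the test. The part of cell number in the changes above was not tested.

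**Figure D5:**
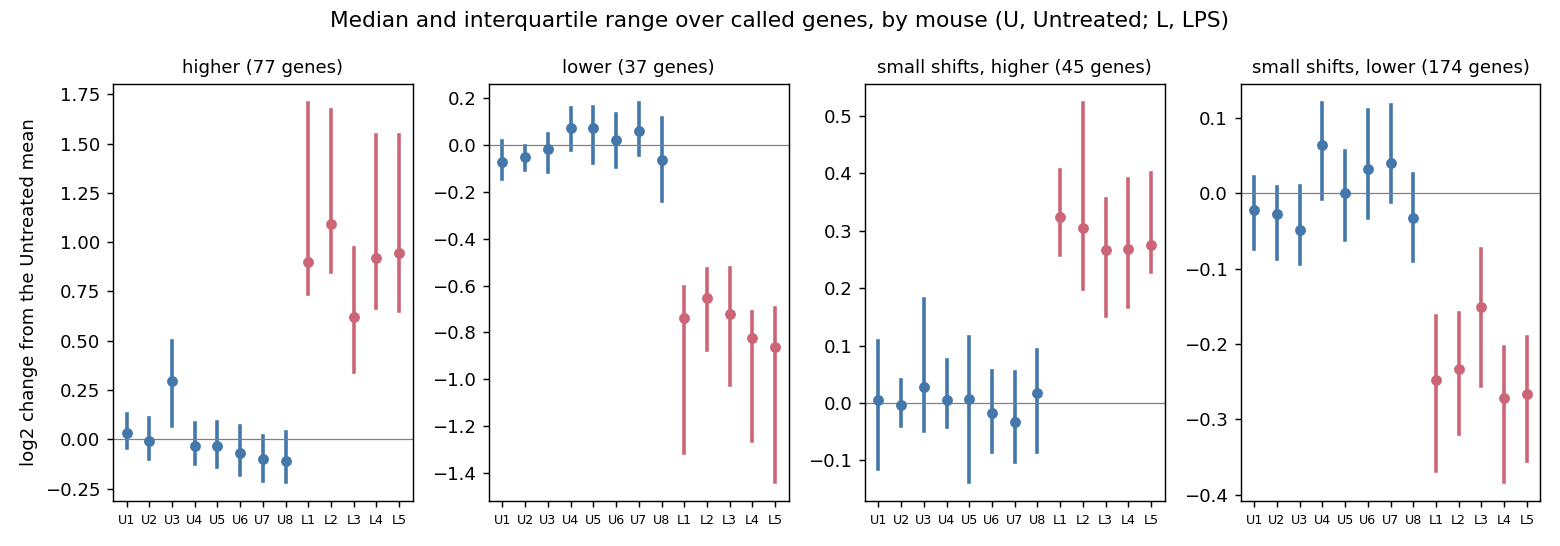
Median (point) and interquartile range (bar) of the log2 change from the Untreated mean over the called genes that were above background in all 13 mice, for each Untreated (U) and LPS (L) mouse. For 77 upregulated genes LPS replicate 3 has a median of 0.62 against 0.90 to 1.09 in the other LPS mice and Untreated replicate 3 one of 0.30, whereas for 37 downregulated genes LPS replicate 3 lies at -0.72, within the -0.86 to -0.65 of the others.

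The 5 LPS mice differed in how far they had moved. Of 110 upregulated genes above background in all LPS mice, LPS replicate 3, a male, had the smallest change in 75, and its change was 63.5% of the median of the other 4 mice at the median gene. LPS replicate 2, also a male, had the largest change in 53 of the 110 genes and LPS replicate 5, a female, in 35. Over the 10 upregulated genes on the list of nucleic acid sensors and adaptors the median change of LPS replicate 3 was 0.37 against 0.83 to 0.91 in the others, and over the 12 immunoreceptors 0.93 against 1.27 to 1.70. The downregulated genes did not show the same order. Of 42 that were above background in every Untreated mouse, LPS replicate 3 had the smallest change in 14 and LPS replicate 2 in 15, with 86.6% and 82.2% of the median of the other 4 mice. In the small downward shifts, LPS replicate 3 was the highest LPS mouse for 96 of 174 genes, with a median change of -0.15 against -0.27 to -0.23. Among Untreated mice, replicate 3 was the highest of the 8 in 46 of the 77 upregulated genes, by a median of 0.37 (log2) over the other 7. LPS replicate 3 and Untreated replicate 3 were in the third lane of their cartridges, and their total counts, 685939 and 756505, were within the range of the other mice. The reason for either was not tested.

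No gene passed the threshold for a different LPS response in females and males. In a test of the interaction of sex and LPS with edgeR, 0 of 770 genes had an adjusted p under 0.05 (background 0%) and 53 had an unadjusted p under 0.05, with 2 females in each group. Beside Cx3cl1, the smallest p values were those of Pacsin1, Mapt, Fscn1, Akt2 and Rab6b, each with an adjusted p of 0.631. For these neuronal and signalling genes the interaction, the change in females minus that in males, was -0.30, -0.27, -0.32, -0.41 and -0.24. Without passing the adjusted threshold, these values only describe the mice at hand.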

How the data were processed

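Cortical RNA of 23 mice was counted by the authors with the nCounter Mouse Neuroinflammation panel, and the deposited values are expected counts as exported, whose probe entries are whole numbers. Header lines with decimals share the columns. The authors also deposited a table of processed values, which was not used here. Submitters' notes name edgeR, and the methods name upper quartile scaling, RUVg and the likelihood ratio test. 1 column of the count table belongs to no sample and was left out.

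Counts of 757 endogenous and 13 housekeeping genes underwent upper quartile scaling. LPS was tested against Untreated in edgeR 4.0.16 (R 4.3.3) by its quasi-likelihood test, fitting group means to all 23 mice, with Benjamini-Hochberg adjustment over all genes and no filter on low counts. Calls needed a log2 change larger than 0.5 in size at an adjusted p under 0.05. Normalized counts are counts over the scaled library size, times its mean over mice. A fold given as "at least" sets the LPS mean against the mean background of Untreated mice. For the downregulated Ltc4s it sets the Untreated mean against the mean background of LPS mice. Values per mouse on the log2 scale used a pseudocount of 1, except in the plot of small shifts. The script was tested on simulated data. Genes under a near-identical copy are uncertain.

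Members and lists were chosen with earlier results of these data known. Named genes were up to 4 called members of each list with the smallest p, members against a list's majority, the 15 largest changes each way among genes above background, the 10 small shifts each way with the smallest p among those that passed with every scaling, the housekeeping genes, 5 genes each way with 1 distant LPS mouse, and 5 genes of the interaction of sex and LPS, leaving aside genes already described for these mice. Results of some named genes are not reported here.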

Additional observations from a re-analysis of the deposited data

Results flagged for a closer look

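In 20 of 201 groups of mice tested (named genes above background in every mouse of the group), 1 mouse lay farther from the others than Dixon's 95% critical value, which chance exceeds in about 5% of groups, here about 10.1. Some named genes were chosen because 1 LPS mouse lay far from the others. The 5% rate does not hold for their groups, so 20 against 10.1 is no fair comparison. Values are normalized counts, each set against the range of the other mice of the group. Untreated replicate 3 was the distant mouse in 8 of the 20, and it was high in all of them: Ctss (1065 against 597 to 786), Ddx58 (130.1 against 87.3 to 107), Fcer1g (158 against 91.4 to 106), Hmox1 (64.1 against 45.4 to 54.02), Il2rg (54.4 against 23.01 to 35.5), Ly6a (1284 against 483 to 862), Tgm2 (177 against 96.3 to 123) and Tnfrsf1a (187 against 119 to 140.3). These are genes that LPS raised.

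LPS replicate 3 was the distant mouse in 4 cases. It was low for the upregulated genes Osmr and Srgn and high for Fcrls, which was downregulated, and for Tubb3, a small downward shift, so nearer to the Untreated mice each time: Fcrls (149.6 against 70.3 to 84.3), Osmr (194 against 291 to 319), Srgn (440.4 against 712 to 766) and Tubb3 (4539.6 against 3872 to 4049).

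The other 8 cases came from different mice. In LPS mice they were replicate 2 for Ltbr (153 against 94.1 to 109.9) and replicate 5 for Nlrp3 (77.3 against 44.6 to 52.4) and Lars (711 against 671 to 679). In Untreated mice they were replicate 5 for Padi2 (425 against 336 to 362), replicate 6 for Ptpn6 (38.2 against 53.9 to 63.1), replicate 7 for Nlrp3 (40.8 against 25.01 to 31.1) and Stmn1 (13956 against 15488 to 16594), and replicate 8 for Csnk2a2 (929 against 1015 to 1078).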

How the results depend on the processing

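Raising the size limit to an absolute log2 fold change of 1 left 75 of 129 upregulated and 15 of 46 downregulated genes. Small shifts depended on the scaling and on the mice. The 178 downward shifts became 107 with housekeeping scaling, 47 with positive control scaling and 73 in males only, and the 47 upward shifts became 22 in males only. The scalings move the median of all genes, and males only is a smaller sample. Leaving out each mouse in turn gave 114 to 132 upregulated and 42 to 50 downregulated genes, 35 to 48 upward and 151 to 185 downward small shifts, and 0 to 0 genes with an interaction of sex and LPS. No direction was reversed for a named gene that was called or a small shift under any alternative run, while 5 of 8 named genes that did not pass, all housekeeping genes, changed sign with positive control scaling. Of 79 named called genes, 55 kept direction and call under every alternative run and 24 lost the call under 1 or more, and of 26 small shifts 22 kept theirs and 4 lost it. Of the small shifts, 10 each way were named because they passed with every scaling, so the scalings could not count against them. Over the panel, 39 of 178 downward shifts passed with every scaling. Alternatives run were scaling by positive controls, housekeeping genes, RLE or TMM, DESeq2 1.42.0, limma-voom, the likelihood ratio test, 1 RUVg factor, a low-count filter, background subtraction, sex as covariate, males only, only the 13 mice, leaving out the 3 Untreated mice of another number series, and, chosen after seeing the data, leaving out both replicates 3. Without both replicates 3, Col6a3 was at -0.50 and Slc10a6 at 0.77 and both lost their call. No paired analysis was possible because the labels pair no mice and replicates are only numbered within groups. Genes near background, such as Fpr1, Slc10a6 and Ltc4s, are limited by depth.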
